A study of Zea mays with 168 samples.

Results

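Maize inbred lines 005 and 301 and the reciprocal hybrids between them were followed in the primary root, the first root to emerge from the kernel, 3.5 days after germination. The samples were chosen by the genotype given in their titles, 005x005 and 301x301 for the inbred lines and 005x301 and 301x005 for the hybrids. They numbered 56 samples, of which 49 were used, out of 160 samples used over the whole series. The whole series holds 4 inbred lines and the 12 hybrids between them, and each RNA sample was hybridised with a second one to a 2-colour cDNA microarray. The samples are numbered as separate replicates, each made from a pool of about 20 roots, but 2 pairs of slides without samples of the cross were nearly identical. Kernels germinated in water in a growth chamber, and the labels name no treatment. The deposited notes give the lines with the prefix UH. The labels do not say which of the lines named in a hybrid was the seed parent.

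A hybrid carries 1 allele of most genes from each parent. Where both alleles act as they do in the parents, its transcript level lies at the mean of both lines, and a departure from that mean is called non-additive. Such departures are studied as a molecular side of heterosis, the greater vigour of hybrids over their inbred parents, which in maize is already visible in the growth of the young root. Reciprocal hybrids have the same nuclear alleles but differ in the parent that supplied the cytoplasm, the organelles and the larger share of the endosperm genome.

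The inbred lines were represented by 16 samples of 005x005 and 19 of 301x301, and each hybrid by 7. Slides 0, 1, 288 and 289 were left out because the identity or the level of their channels was in doubt, which took away 3 samples of 005x301, 2 of 301x005 and 2 of 005x005. Of the slides used, 13 carried a pair of genotypes of the cross, 12 of them a line with a hybrid. Slide 301 was the single one that carried both hybrids, and no slide carried both lines. Each line had 6 samples on these slides and the rest, 10 of 005x005 and 13 of 301x301, on slides shared with genotypes of other crosses. On the 3 slides that paired 005x301 with 005x005 the hybrid was always labelled with Cy3.

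Channel medians of the 49 samples ran from 8.92 to 11.31 on the log2 scale. The share of tested spots brighter than 95% of the spots without an identifier had a median of 19.7% in 005x005, 20.3% in 301x301, 21.7% in 005x301 and 21.4% in 301x005, with a range from 10.1% to 50.5% over all samples, and what those positions hold was not tested. On the 13 slides of the cross, the SD of the log ratio over spots lay between 0.297 and 0.809. Levels below are log2 values over the median spot of the same channel, and differences are log2 differences from the fit, with slide as block and a dye effect, unless a slide is named. The mean of both lines was taken over their log2 values. Where the lines differ, it lies below the log2 of their mean transcript amount. A difference is termed called where its adjusted p was below 0.05. The root origin of the samples could not be checked against marker genes, because only 8 identifiers of the array were paired with a gene symbol and none of them belonged to the marker lists.

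No transcript passed the test in any comparison within the cross. With limma, 0 of 11838 spots (0%) were called for 005x301 against the mean of both lines, and likewise 0 (0%) for 301x005 against that mean, for 005x005 against 301x301, and for 005x301 against 301x005. At an unadjusted p under 0.05 there were 419 spots (3.54%) for 005x301, 218 (1.84%) for 301x005, 230 (1.94%) for the lines and 426 (3.6%) for the reciprocal hybrids, each below the 5% that the threshold allows by itself. The mean of both hybrids against the mean of both lines gave 0 calls (0%), and 1.33% of spots had an unadjusted p under 0.05. These counts do not show that the genotypes were alike. The median SE was 0.18 for each hybrid against both lines, 0.20 between the lines and 0.23 between the hybrids.

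The intervals bound the size of the differences. The 95% interval lay within a 2-fold change in either direction for 97.7% of spots in 005x301, 98.7% in 301x005, 96.9% between the lines and 92.2% between the hybrids. Within a 1.5-fold change it lay for 75.4%, 82.2%, 65.5% and 41% of spots. Estimates beyond 2-fold were found for 34 spots in 005x301, 2 in 301x005, 14 between the lines and 43 between the hybrids. The median size of the estimate was 0.10 in 005x301, 0.08 in 301x005, 0.12 between the lines and 0.14 between the hybrids, in each case smaller than the median SE of that comparison.

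**Figure D1:**
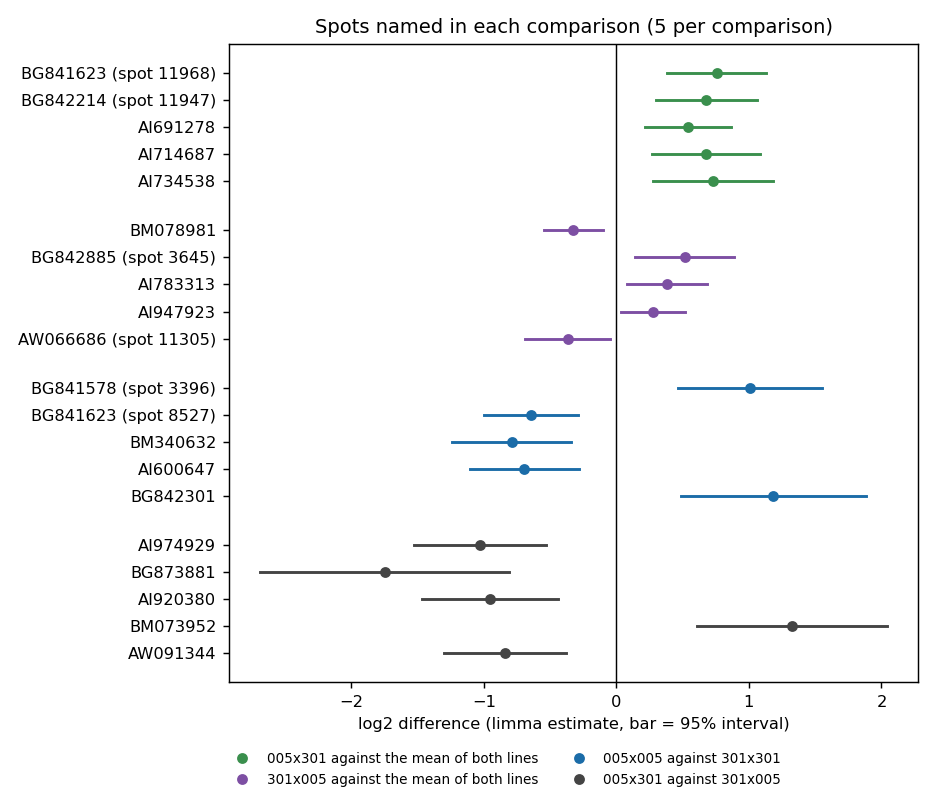
Log2 difference (point) and 95% interval (bar) from the limma fit for the 5 spots named in each of the 4 comparisons, on a horizontal axis in log2 units. The spots were picked for small p-values and none was called; BG873881 and BM073952 have the largest estimates, -1.75 and 1.33, and the hybrid deviations of 301x005 lie closest to 0.

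The spots named below are those of smallest p among the spots that differed in the same direction on every slide carrying the genotypes compared. For the hybrid deviations, that shared direction was thus fixed by the choice and is no evidence of repeatability. No slide carried both lines, so the line comparison was led by p alone, and the reciprocal comparison had 1 such slide. For 005x301 against both lines, 325 spots (2.75%) had the same direction on all 6 slides that paired this hybrid with a line, and for 301x005 80 spots (0.676%). These shares were not tested against what slides of random direction would give, and they do not show a repeatable deviation. The identifiers are of maize cDNA clones, for which the files give no gene name.

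The spots leading the comparison of 005x301 with both lines were all higher in the hybrid. BG841623 (spot 11968) had levels from -1.21 to 1.89 in 005x005 with a median of -0.11, from -0.52 to 1.88 in 301x301 with a median of 0.65, from 0.26 to 1.83 in 005x301 with a median of 0.41, and from -0.09 to 1.91 in 301x005 with a median of 0.55. The 4 groups overlapped. All 7 samples of 005x301 lay above the median spot, as did 5 of 7 samples of 301x005. In the lines it was 6 of 16 samples of 005x005 and 15 of 19 of 301x301. Slide by slide, 005x301 exceeded 005x005 by 0.58 on slide 4, 0.39 on slide 287 and 1.48 on slide 308, and it exceeded 301x301 by 0.31 on slide 304, 0.16 on slide 307 and 0.58 on slide 309. On slide 301 it exceeded 301x005 by 1.68. The fitted deviation from both lines was 0.76 ± 0.19 (SE), or 1.69-fold, with an adjusted p of 0.762 in limma, and 0.15 ± 0.19 for 301x005. Without slide 301 the deviation of 005x301 was 0.58.

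BG842214 (spot 11947) was 0.68 ± 0.19 above both lines in 005x301 and 0.16 ± 0.19 in 301x005, and its second spot (9023) was at 0.46 ± 0.22 and 0.15 ± 0.21. At spot 11947 its levels had medians of 1.22 in 005x005, 2.00 in 301x301, 2.27 in 005x301 and 1.87 in 301x005, so this transcript was well above the median spot in all genotypes. AI734538 was brighter still, with medians of 1.52, 2.01, 3.07 and 2.49 in the same order, and deviated by 0.73 ± 0.23 in 005x301 and 0.22 ± 0.22 in 301x005. AI714687 deviated by 0.67 ± 0.21 in 005x301 and AI691278 by 0.54 ± 0.16. On the single slide with both hybrids, 005x301 was higher than 301x005 by 1.69 in BG842214, 1.06 in AI734538, 1.12 in AI714687 and 0.20 in AI691278. In BG842214, AI714687 and AI734538 the lowest of the 7 samples of 005x301 was that of slide 287, at 0.53, -0.18 and 0.36, and 005x005 on that slide was lower again by 0.40, 0.39 and 0.48. In 301x005 the slides went both ways, since AI734538 was 1.94 above 005x005 on slide 3 and AI714687 1.85, while on slide 298 they stood at -0.93 and -0.71 from 301x301. The choice required 1 direction on the slides of 005x301 but not on those of 301x005. This contrast between the hybrids therefore follows from the choice. Adjusted p was 1.0 for all 4 of these spots.

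In 301x005 the leading spots departed less from the lines and went both ways. BM078981 was lower than the mean of both lines, at -0.32 ± 0.11, while it stood at 0.17 ± 0.11 in 005x301. Its levels overlapped fully between groups, with medians of -0.19 in 005x005, 0.22 in 301x301, 0.29 in 005x301 and 0.27 in 301x005. The median of 301x005 thus lay above both lines, opposite to the fitted sign. AW066686 (spot 11305) was at -0.37 ± 0.16, and this dim spot had medians from -1.40 in 301x005 to -0.81 in 005x005. Its second spot (9475) was at 0.11 ± 0.20, in the opposite direction. BG842885 was at 0.51 ± 0.19 at one of its spots and at 0.15 ± 0.17 at the other (7238), AI783313 at 0.38 ± 0.15 and AI947923 at 0.28 ± 0.12, each with an adjusted p of 1.0. In AI947923 the median level was -0.83 in 301x005, below -0.45 in 005x005 and -0.59 in 301x301, again opposite to the fitted sign. On slide 291, which had the widest log ratios of the cross, 301x005 exceeded 005x005 by 2.32 in BG842885, 0.94 in AI783313 and 0.77 in AI947923. Without that slide the deviation of BG842885 was 0.20.

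The lines were compared only through shared partners. Among spots that led this comparison, BG841578 (spot 3396) was 1.01 ± 0.27 higher in 005x005 than in 301x301, with 1.05 ± 0.40 at its second spot (10448), and BG842301 was 1.18 ± 0.35 higher. BG842301 had levels from -0.07 to 4.95 in 005x005 with a median of 2.32, and from -1.65 to 2.70 in 301x301 with a median of 1.16. The hybrids, with medians of 2.84 in 005x301 and 2.76 in 301x005, stood above both lines in median level, but the fitted deviations from the mean of both lines were 0.27 ± 0.31 and 0.56 ± 0.31. BM340632 was lower in 005x005, at -0.79 ± 0.23, and so was AI600647, at -0.69 ± 0.20. Adjusted p was 1.0 for these 4 spots.

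BG841623 was printed a second time, and that spot (8527) was among the leading spots of the line comparison. Its levels in 005x005 ran from -1.48 to 1.86 with a median of -0.17, and only 5 of 16 samples lay above the median spot. In 301x301 they ran from 0.07 to 1.31 with a median of 0.90, and all 19 samples lay above it. Samples of 005x301 lay between 0.20 and 1.05 with a median of 0.88, close to 301x301, and samples of 301x005 between 0.16 and 1.09 with a median of 0.37. The ranges overlapped because of a few high samples of 005x005, the highest of them on slide 36. The fitted line difference was -0.64 ± 0.18, with an adjusted p of 1.0. The hybrid 005x301 was 0.77 ± 0.18 above 005x005 (adjusted p = 0.535 in limma) and 0.13 ± 0.18 from 301x301, and the hybrid 301x005 was 0.34 ± 0.18 above 005x005 and -0.30 ± 0.18 from 301x301.

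On the slides, 005x301 exceeded 005x005 in spot 8527 by 0.74 on slide 4, 0.33 on slide 287 and 1.16 on slide 308, and differed from 301x301 by 0.15, 0.04 and -0.14 on slides 304, 307 and 309. The hybrid 301x005 exceeded 005x005 by 0.02, 0.43 and 0.98 on slides 3, 290 and 291. In separate sets of slides, the line difference of BG841623 at spot 8527 was -0.88 through 005x301, -0.91 through 301x005 and -0.46 through genotypes outside the cross. The spot was picked for a small p of this difference over the same slides. A shared direction of the 3 values was therefore favoured by the choice. On slides 4, 287 and 308, behind the value through 005x301, the hybrid was always in Cy3. At spot 11968 the same 3 values were -0.23, -1.08 and 0.17. With slide as a random block, which also uses the level of each channel, spot 8527 was called for the line difference, at -0.78 with all genotypes in the fit (adjusted p = 0.043) and -0.85 with the 4 genotypes of the cross (adjusted p = 0.0092), while the fixed block gave adjusted p between 0.902 and 1.0 when single slides of the cross were left out.

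**Figure D2:**
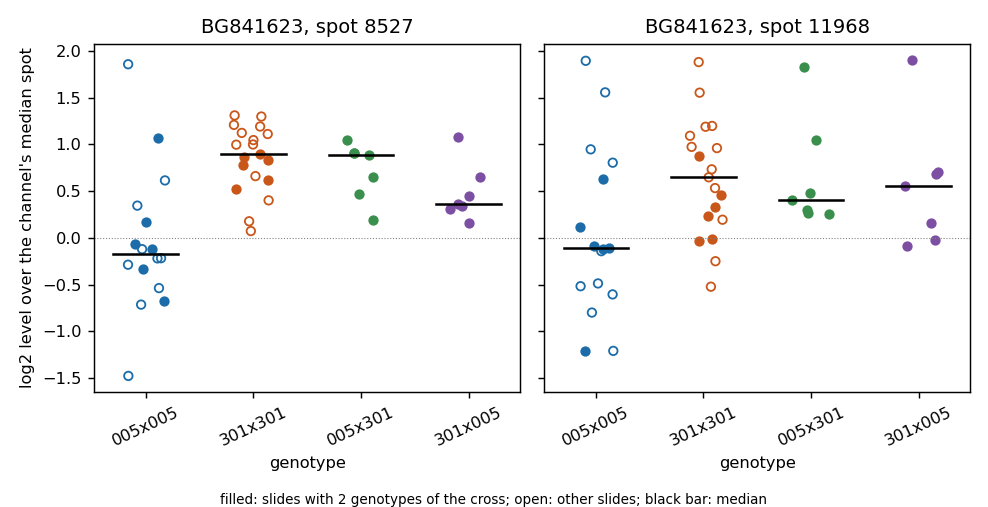
Log2 level over the channel's median spot (vertical axis) of BG841623 at spots 8527 and 11968, for each sample of the 4 genotypes (horizontal axis), with black bars at the medians; filled points come from slides with a pair of genotypes of the cross and open points from other slides. At spot 8527 the median of 005x005 is -0.17 and that of 301x301 is 0.90, while at spot 11968 all groups overlap more widely.

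BG841780 (spot 8736) was chosen after its values were seen, as the other spot called between the lines with slide as a random block. Its levels ran from -0.98 to 3.19 in 005x005 with a median of 0.63, from 1.10 to 4.08 in 301x301 with a median of 2.55, from 0.69 to 3.07 in 005x301 with a median of 2.25, and from 0.50 to 3.33 in 301x005 with a median of 1.75. The fixed block gave a line difference of -0.75 ± 0.30 and a difference of 1.11 ± 0.32 between 005x301 and 005x005, with adjusted p of 1.0 and 0.676. On slide 301 it was 2.23 higher in 005x301 than in 301x005.

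Between the reciprocal hybrids, 3 of the 5 leading spots, BG873881, AI920380 and BM073952, changed by over 1.5 times when 1 slide was left out. The comparison has 1 slide with both hybrids and is otherwise carried through the lines. BG873881, at -1.75 ± 0.47, reached a level of 7.26 in the sample of 301x005 on slide 301 and had a median of -0.10 over the 7 samples of that hybrid, of which no other lay above the median spot. Without slide 301 the difference was 0.027. AI974929 was at -1.03 ± 0.25 and AI920380 at -0.95 ± 0.26, with levels of 3.07 and 3.64 in the same sample against medians of -0.10 and -0.02, and without slide 301 they were at -0.75 and -0.44. AW091344 was at -0.84 ± 0.23. Adjusted p was 1.0 for these 4 spots. In AI974929, 301x005 was above 301x301 by 1.70 on slide 298, 0.75 on slide 299 and 0.04 on slide 302. The other hybrid, 005x301, was at -1.05, -1.34 and 0.28 from 301x301 on slides 304, 307 and 309. Slides with 005x005 were mixed. There 301x005 stood at -0.11, 0.09 and -0.68 from 005x005 on slides 3, 290 and 291. On slides 4, 287 and 308, 005x301 stood at 0.42, -0.21 and -0.41 from 005x005. The median level was 0.25 in 005x301 and -0.10 in 301x005, in the opposite order to the fitted difference. AI974929 was called at -1.23 without slide 291 (adjusted p = 0.0438 in limma) and at -1.12 with array weights (adjusted p = 0.0235).

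BM073952 was the spot nearest to a call in the cross. It was 1.54 ± 0.31 higher in 005x301 than in 301x301 (adjusted p = 0.0571 in limma) and 1.33 ± 0.36 higher than in 301x005, and it also had the smallest p for 005x301 against both lines, at 1.18 ± 0.27 (adjusted p = 0.645), but not the same direction on every slide. Its level reached 8.01 in the sample of 005x301 on slide 307 and 3.00 in another, while the median of the 7 samples was -0.09, and medians of the other groups lay between -0.57 and -0.19. The sample of 301x301 on slide 307 was the highest of its own group as well, at 2.15. Without slide 307 the difference from 301x301 was 0.50 ± 0.22 (adjusted p = 1.0 in limma). Without slide 3, 4, 287, 299, 304, 308 or 309 it was called.

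Each hybrid was also set against each line. The count at an unadjusted p under 0.05 was 647 (5.47%) for 005x301 against 005x005, 0.98% of spots for 005x301 against 301x301, 176 (1.49%) for 301x005 against 005x005 and 219 (1.85%) for 301x005 against 301x301, and 0 spots (0%) were called in each. Differences beyond 2-fold were estimated for 75 spots between 005x301 and 005x005 and for 7 between 005x301 and 301x301. In 301x005 the numbers were 3 against 005x005 and 7 against 301x301. In 301x005 against 301x301 the smallest p belonged to AW331262, chosen after its values were seen, at -1.52 ± 0.33 (adjusted p = 0.160 in limma), and without slide 298 it was called at -1.95 (adjusted p = 0.0050). The pair with the most small p-values is the one whose 3 slides all carry the hybrid in Cy3, so that on them genotype and dye cannot be told apart.

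The small p-values of 005x301 came mainly from bright spots. Spots were divided by mean level into 4 classes of equal size. In the dimmest class 0.743% of spots had an unadjusted p under 0.05 for this hybrid against both lines, and in the following classes 1.32%, 3.48% and 8.61%. For 301x005 the order was the opposite, with 2.87%, 2.16%, 1.59% and 0.743%. Between the lines the classes held 1.45%, 2.26%, 2.16% and 1.89%. Spots share slides, and these shares were not tested.

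**Figure D3:**
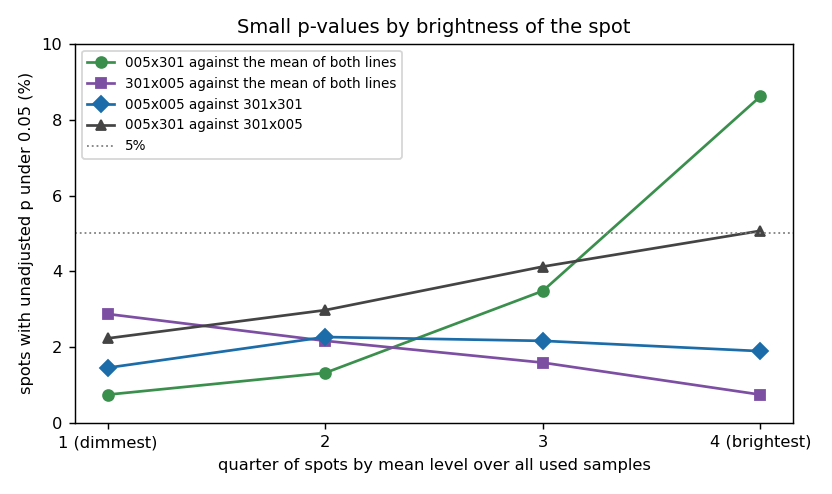
Share of spots with an unadjusted p under 0.05 (vertical axis, percent) by class of mean level (horizontal axis, dimmest to brightest) in the 4 comparisons, with 5% as a dotted line. The share rises to 8.61% in the brightest class for 005x301 against both lines and falls to 0.743% for 301x005.

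Line differences estimated from slides that share no sample had little in common. Over 11838 spots, the difference 005x005 minus 301x301 through 005x301 and that through 301x005 had a Pearson correlation of 0.149 (Spearman 0.0653), and the set of 65 slides outside the cross correlated at -0.0572 with the first and -0.143 with the second. The deviations of both hybrids from the lines, each on its own 6 slides, correlated at -0.138. These values are descriptions over spots, which share slides. Each set had its own dye effect, and for 005x301 only slides 304, 307 and 309 set it apart from genotype. Of the 100 spots with the largest moderated t between the lines outside the cross, 54 had the same sign on slides of the cross, where their median difference in that direction was 0.02, against a median size of 0.78 outside. Over all spots 44.4% had the same sign. Slides that carried the same pair of genotypes correlated at a median of 0.0524 for 6 pairs with the same dyes (range -0.103 to 0.362) and -0.19 for 6 pairs with swapped dyes (range -0.643 to 0.269), with the sign turned so that a shared genotype difference would be positive.

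**Figure D4:**
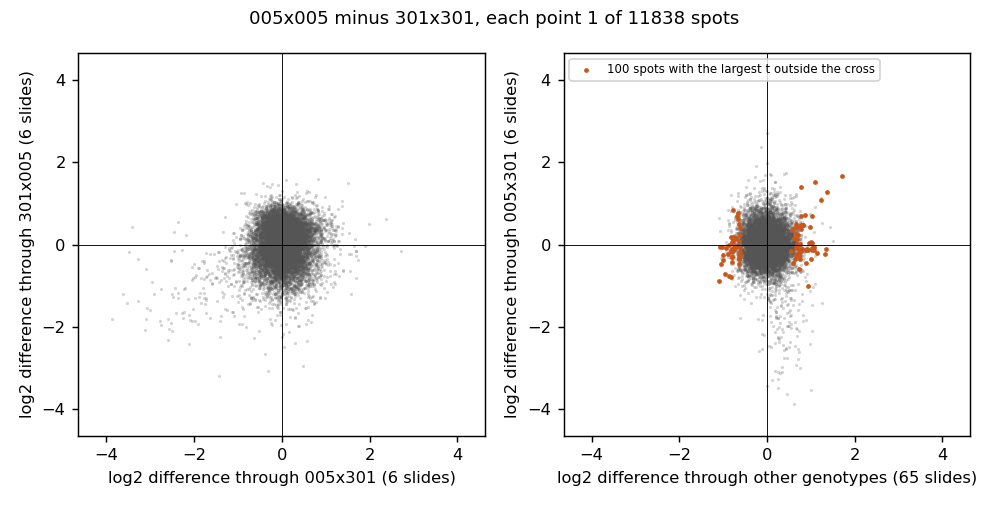
Log2 difference of 005x005 minus 301x301 for each spot, estimated through 301x005 against through 005x301 (left), and through 005x301 against slides outside the cross (right), with both axes in log2 units. The clouds show correlations of 0.149 and -0.0572, and a tail of spots at strongly negative values on the left does not continue on the slides outside the cross. Values through 005x301 rest on a dye effect that only slides 304, 307 and 309 set apart from genotype.

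A small group of bright spots was estimated lower in 005x005 than in 301x301 through both hybrids. It was chosen after its values were seen, as the 66 spots whose line difference was beyond 2-fold in that direction in both sets, against 2 spots in the other direction, and 57 of the 66 were in the brightest 10% of spots. AI621516 was at -3.87 through 005x301 and -1.82 through 301x005, and AI622349 at -3.62 and -1.21. On slides outside the cross the 66 spots had a median difference of 0.36 and 58 of them were higher in 005x005, among them AI621516 at 0.62. The median over the group moved with the slide. The hybrid exceeded 005x005 by 1.58 on slide 4, 2.32 on slide 287, 0.88 on slide 308, 0.92 on slide 3 and 1.55 on slide 290, but not on slide 291, where it was at -0.44. Against 301x301 the hybrid was at -3.50 on slide 298, -1.19 on slide 299, -0.27 on slide 307 and -0.48 on slide 309, but at 0.82 on slide 302 and 1.35 on slide 304. These slide values carry no dye correction. The differences through 005x301 rest on a dye effect that only slides 304, 307 and 309 set apart from genotype. None of the 66 was called in the fit over all slides.

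Log ratios of Cy5 over Cy3 on the 11 slides of the cross numbered 287 to 309 correlated positively in 46 of 55 pairs of slides, whatever genotypes they carried, with a median of 0.207 and a range from -0.363 to 0.643. Over all 13 slides of the cross, with slides 3 and 4 included, 51 of 78 pairs were positive, with a median of 0.125 and a range from -0.499 to 0.643. The fit removes 1 dye effect per spot. The SD of the log ratio per slide was 0.518 ± 0.157 (SD, n = 6 slides) where 005x005 was on the slide and 0.426 ± 0.111 (n = 6) where 301x301 was, a difference that an exact two-sided permutation test over slides did not separate (p = 0.268, smallest possible 0.00216).

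The level of some spots differed between sets of slides, a split chosen after seeing the data. AW257883 (LOC100279628) had a median level of 5.83 over the 14 hybrid samples (range 2.61 to 6.80) and 6.24 over the 12 line samples on the same slides (range 1.58 to 7.01). Over the 22 line samples measured on other slides the median was 2.24 (range -1.75 to 6.46). At this spot hybrids and lines thus had similar levels on shared slides, and the same lines were lower elsewhere. The other spots split in this way were not lower elsewhere. Line medians on slides of the cross and on other slides were 2.21 and 2.58 in AI987507. In BG841623 they were 0.57 and 0.62 at spot 8527, and 0.05 and 0.73 at spot 11968. The fitted deviations of AW257883 were -0.09 ± 0.23 in 005x301 and 0.02 ± 0.23 in 301x005. Over all 11838 spots, the mean of hybrid samples and that of line samples on shared slides differed by more than 2-fold for 3 spots, while line samples on slides of the cross and line samples on other slides differed by more than 2-fold for 399.

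**Figure D5:**
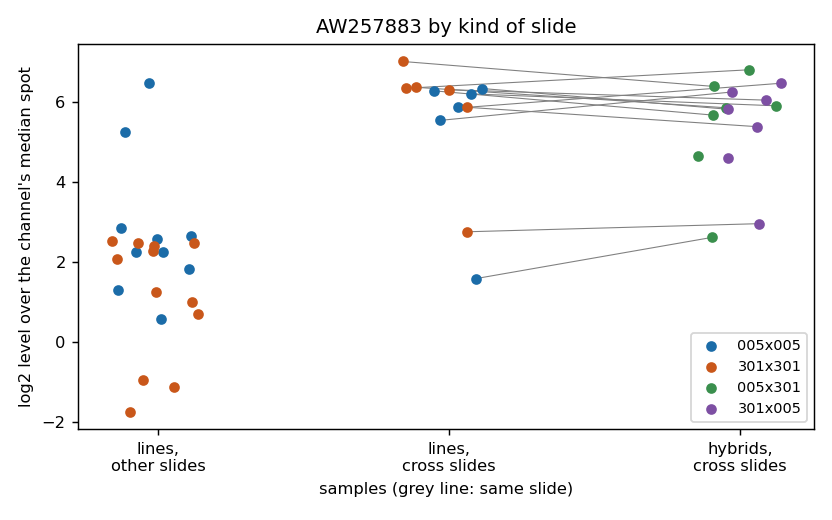
Log2 level of AW257883 over the channel's median spot (vertical axis) in line samples on other slides, line samples on slides of the cross and hybrid samples (horizontal axis), coloured by genotype, with grey lines joining samples of the same slide. Lines and hybrids of the same slide lie close together, with medians of 6.24 and 5.83, while lines on other slides have a median of 2.24.

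None of the 8 identifiers paired with a symbol was called in the 4 comparisons of the cross. AI987507 (LOC542198) had the largest of their hybrid deviations, 0.35 ± 0.16 in 301x005, against -0.15 ± 0.16 in 005x301, with median levels between 2.16 and 2.51 in the 4 groups. AI665898 (LOC100191184), listed as a reticulon, a protein that shapes the endoplasmic reticulum, was printed at 2 spots. They stood at -0.00 ± 0.16 and 0.32 ± 0.23 in 005x301, and at -0.08 ± 0.16 and 0.13 ± 0.23 in 301x005. AW400087 (LOC100500995), a long non-coding RNA, was at -0.26 ± 0.18 and -0.04 ± 0.18. AI714808 (LOC100283464), a transcribed pseudogene, was at 0.12 ± 0.16 and 0.07 ± 0.16. AI901738, AI691686 and AI920398 deviated by between -0.25 and 0.12 in either hybrid. Spots that share an identifier had little in common. Over 402 identifiers their differences correlated at 0.241 for 005x301 against both lines, 0.0466 for 301x005 against both lines, 0.160 between the lines and 0.137 between the hybrids, and the share with the same sign lay between 51.99% and 55.7%. Whether the identifier given for each named spot belongs to that row of the value table was not tested, so the names hold only as far as the files pair them.

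In the same fit some of the other crosses had calls and some had few or none. Of 11838 spots, the hybrid 250x005 had 173 called against its lines and differed from its reciprocal in 327, and 002x301 had 29. The cross of lines 250 and 301 had 0 calls in the same 4 comparisons. There 1.44% of spots in 250x301 and 0.963% in 301x250 had an unadjusted p under 0.05 against both lines. The hybrids 002x005 and 005x002 also had 0 calls against their lines and against each other. The mean deviation of the hybrids 005x301 and 301x005 minus that of the other 10 hybrids was tested directly, and 0 spots (0%) were called, with 1.3% of spots at an unadjusted p under 0.05 and a median SE of 0.15. Calls in one cross and not in another do not show that the crosses differ.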

How the data were processed

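Polyadenylated RNA of maize primary roots was measured on 2-colour cDNA arrays in 16 genotypes. Values used are the deposited log2 intensities. According to the deposited notes the authors scanned at rising gain, chose 1 scan and normalized it. Exact 0 was treated as missing. The deposited scanner tables hold linear intensity values and served as an alternative (normexp, loess). The sources used here do not say how background was subtracted for the log2 values. Another 18 columns of 2 slides match no labelled sample and were not used.

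Without slides 0, 1, 288 and 289, 80 slides remained. There were 2 pairs of nearly identical slides, none holding a sample of the cross, and each pair was averaged, leaving 78. Log2 ratios per slide (slide as block) were fitted with 16 genotypes and dye (R 4.3.3, limma 3.58.1 with moderated variances; prior degrees of freedom 10.4, residual 55 to 62). Of 12160 spots, 190 without identifier and 132 of 11 identifiers printed 12 times were left out. P-values were adjusted by Benjamini-Hochberg within each comparison over 11838 spots. The code was tested on simulated data. Title and label field give different dyes on 11 slides, 5 of them with a line sample and none with a pair of genotypes of the cross; dyes follow the titles except on 1 slide whose title names Cy3 for both channels, and the label field was tried as an alternative (0 calls). Precision is limited by the number of slides. Alternatives were slide as a random block, array weights, other normalizations, other sets of slides and each slide of the cross left out.

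Named spots were the 5 of smallest p among those with 1 direction on every slide of the pair, since none was called, and the 8 identifiers with a symbol, matched through the reference gene table. Samples and lists were chosen with earlier results of these data known. Gene lists by symbol for root, green tissue, low oxygen, oxidative stress and growth had 0 members on the array with a symbol.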

Additional observations from a re-analysis of the deposited data

Results flagged for a closer look

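Single samples stood far from the other samples of their group in 12 of 66 groups examined, and 4 of the 12 were on slide 301. A group was the 7 samples of a hybrid or, for the SD of log ratios, the 6 slides of a line. The measure flags about 1 in 20 groups of values drawn alike, but most of these spots were picked for small p-values, which 1 far sample can affect, and spots share slides, so that rate does not apply to this count. The measure was the gap to the nearest sample as a share of the group's range, and the values are log2 levels over the channel's median spot. On slide 301 these were BG873881 at 7.26, AI920380 at 3.64 and AI974929 at 3.07 in 301x005, and AW091344 at -1.46 in 005x301. On slide 287, samples of 005x301 were low in BG842214 at 0.53, AI714687 at -0.18 and AI734538 at 0.36. On slide 291, samples of 301x005 were high in BG841623 (spot 11968) at 1.91 and BG842885 at 1.79. The others were BM073952 at 8.01 in 005x301 on slide 307, AI691278 at -0.96 in 301x005 on slide 298, and AI714808 at 0.90 in 301x005 on slide 3.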

How the results depend on the processing

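No comparison of this cross had a call in the main fit, with slide as a fixed block and slides 0, 1, 288 and 289 left out. Most of the settings tried (up to 30 a comparison) left the count at 0, but several that use the same deposited values gave calls. Keeping slides 0, 1, 288 and 289 gave 1285 calls between the reciprocal hybrids and 1838 for 005x301 against 005x005. Slide as a random block gave, with all genotypes, 1 call for 005x301 against both lines (BM073952), 1 for 301x005 against both lines (BG840114), 2 between the lines, 14 for 005x301 against 005x005, 1 against 301x301 and 1 for 301x005 against 005x005, and with the 4 genotypes 2 between the lines and 3 for 005x301 against 005x005. Array weights gave 1 call between the hybrids, 26 for 005x301 against 005x005 and 1 against 301x301. For 005x301 against 301x301, 1 call, BM073952, came without slides 18 and 19, with nearly identical slides kept apart, and with a dye effect for each range of slide numbers, a setting chosen after seeing the data. Leaving out single slides gave 0 to 1 call between the hybrids, 0 to 1 for 005x301 against 301x301 and 0 to 5 for 301x005 against 301x301 (5 without slide 298, 1 without slide 291), and 0 elsewhere. The median of the 100 leading line spots on slides of the cross, 0.02, was -0.035 with print block medians and -0.0195 with scanner intensities. Of 560 values of named spots under alternatives, 552 stayed uncalled in the same direction, 7 were called and 1, BG873881, changed sign (-2.10 to 0.0272 over single slides left out, the last without slide 301). The cause of these changes was not tested. Samples are paired by slide in the fit itself. By replicate number, no paired analysis was possible because no number of the labels is shared by 2 groups. Leaving the slide out of the model, also chosen after seeing the data, gave 0 calls. The number of slides limits precision.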
